A study of Mus musculus with 13 samples.

Results

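The enzymes and DNA-binding factors that write, copy, erase and protect DNA methylation were followed here in whole brains of mouse embryos with and without Meg3. The 10 genes were Dnmt1, Dnmt3a, Dnmt3b, Uhrf1, Zfp57, Trim28, Ctcf, Tet1, Tet2 and Tet3, and their members were all probe sets of the array that its annotation assigns to one of these symbols. This gave 24 probe sets of 45101 on the array, and 22 of them, from 9 of the 10 genes, had a mean signal above the filter described with the processing. The samples were 6 wild-type and 7 Meg3 knock-out brains at embryonic day 18.5, with 1 embryo on each array, drawn from 5 litters. Litter was read from the leading number of each embryo's label, and that this number marks a litter is an assumption. By litter there were 1 knock-out and no wild-type in 148, 1 knock-out beside 2 wild-types in 219, 2 knock-outs beside 1 wild-type in 238, 2 of each genotype in 250 and 1 of each in 262. The sources used here do not give the strain, the sex or the part of Meg3 that was removed.

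DNA methylation in mammals sits mostly on cytosines of CpG pairs. Dnmt1 copies it onto the new strand after replication and is led there by Uhrf1, which reads half-methylated CpG sites. Dnmt3a and Dnmt3b place methylation on unmethylated sites, and the Tet enzymes oxidise 5-methylcytosine as a step towards its loss. At imprinted genes, where only the copy from 1 parent is active, Zfp57 binds the methylated control region and holds the corepressor Trim28 there, and Ctcf binds the unmethylated copy of some control regions as an insulator. Meg3 is a maternally expressed non-coding RNA of such a domain, the Dlk1-Dio3 cluster.

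The labels were borne out by the target gene. Meg3 signal (probe set 1439380_x_at) was 4955 ± 1374 (SD, n = 6) in wild-type and 378 ± 106 (SD, n = 7) in knock-out brains, and all 11 of its tested probe sets were lower past the threshold (limma adjusted p = 4.39e-07 for this one). Neuronal genes stood high, with Dcx at 9191 ± 920 (SD, n = 6) and Map2 at 12971 ± 2768 (SD, n = 6) in wild-type brains. Some arrays stood apart. The 3' to 5' signal ratio of the Actb controls, a measure of RNA integrity, was 2.92 on wild-type 2 and 1.81 on knock-out 1, against 1.32 to 1.495 on the other 11 arrays, and wild-type 1 had Tet1 and Tet2 signals far below the rest. The median array signal ranged from 82.9 to 111 in wild-type and from 96.6 to 124 in knock-out brains, and 72.5% of all tested probe sets had a higher mean in knock-out brains, at a median log2 change of 0.08.

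No probe set of these genes passed the test for a genotype difference. Of the 22 tested, 0 had a limma adjusted p under 0.05, where 17 of all 27022 tested probe sets, or 0.0629%, did. Of those 17, 16 were probe sets of Meg3, Rian and Mirg in the targeted Dlk1-Dio3 cluster, all lower in knock-out brains. The log2 changes of the 22 ranged from -0.22 to 0.65, with 14 higher and 8 lower means in knock-out brains and a median of 0.06. This split depended on the scaling and the arrays: it was 12 higher and 10 lower after quantile normalization, 7 and 15 after median centring (median -0.14), and 10 and 12 without wild-type 1, wild-type 2 and knock-out 1. Before adjustment 3 probe sets had a limma p under 0.05, all higher and all outside the lead probe sets, or 13.6% of the 22 against 3.96% of all tested (3.76% in the higher direction alone). These were 1 of Tet1 and 2 of Dnmt3a, and ordinary least squares also gave 3. Quantile normalization and median centring each left 0 at that p, where 2.70% and 4.42% of all probe sets had it, and litter as a block gave 5, where 4.67% had it. In 0 of the 22 did the wild-type and knock-out arrays stand clear of each other, against 0.133% of all tested (0.0703% in the higher direction). The lead probe set of a gene is the one with its highest mean signal, and changes are differences of log2(signal + 16), with limma's two-sided adjusted p over all probe sets.

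**Figure D1:**
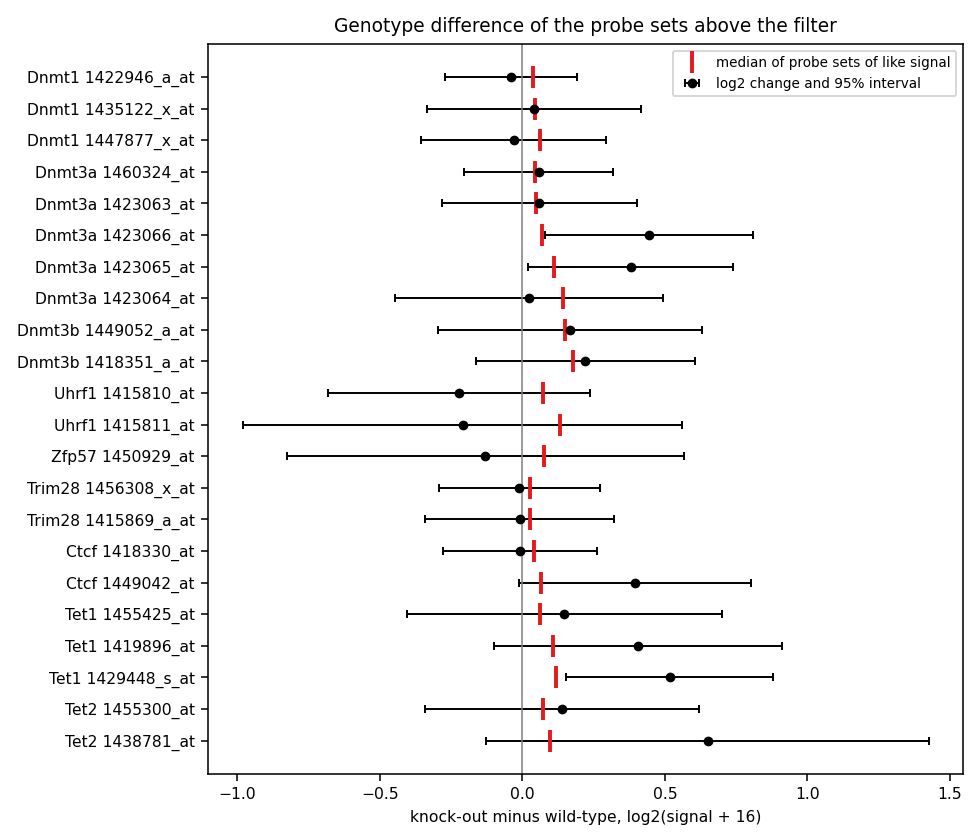
Knock-out minus wild-type difference of log2(signal + 16) for the 22 probe sets above the filter, with limma's 95% interval (6 wild-type and 7 knock-out arrays), and in red the median difference of all tested probe sets within 0.5 log2 units of the same mean signal. The intervals of 19 probe sets hold 0, those of Tet1 1429448_s_at and Dnmt3a 1423066_at and 1423065_at lie above it, and every red mark lies between 0.03 and 0.18.

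Dnmt1, the maintenance methyltransferase, was well expressed, with close means in both genotypes. Its lead probe set 1422946_a_at ran from 2042 through a median of 2643 to 2708 in wild-type and from 2140 through 2398 to 2842 in knock-out brains. The ranges overlapped almost wholly, with a log2 change of -0.04 ± 0.11 SE (95% interval -0.27 to 0.19, limma adjusted p = 1.00). The other probe sets, 1435122_x_at and 1447877_x_at, had log2 changes of 0.04 and -0.03. After median centring the lead stood at -0.24 ± 0.14 SE and the other 2 at -0.16 and -0.23, so the closeness of the means depended on the scaling. The lowest embryos came from 1 litter: the wild-type and the knock-out embryo of litter 262 had the lowest signal of their genotype on all 3 Dnmt1 probe sets. On 1435122_x_at these 2 read 1296 and 1455 against 1638 to 2628 in the other 11 embryos, and on 1447877_x_at they read 675 and 709 against 831 to 1294. With 2 embryos in that litter no test was made of it.

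Uhrf1, which brings Dnmt1 to replication forks, had a lower mean in knock-out brains on both probe sets, within a wide spread. The lead probe set 1415810_at ran from 450 through 596 to 714 in wild-type and from 270 through 539 to 851 in knock-out brains. Both the lowest and the highest embryo were knock-outs, so the groups overlapped fully (log2 change -0.22 ± 0.21 SE, 95% interval -0.68 to 0.24, limma adjusted p = 1.00). Within litters the difference was 0.36 in litter 219 and -0.33, -0.28 and -0.70 in litters 238, 250 and 262. Without knock-out 7 the log2 change was -0.08, and after median centring it was -0.42. The lowest knock-out embryo, knock-out 7 at 270, was again that of litter 262, whose wild-type embryo at 450 was the lowest wild-type.

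The second Uhrf1 probe set, 1415811_at, was low where the RNA measure stood apart. Its signal was 51.7 on wild-type 2 and 57.3 on knock-out 1, the arrays with the highest Actb ratios, against 109 to 293 on the other 11. Over all 13 arrays its correlation with the lead Uhrf1 probe set was Pearson r = 0.14 and Spearman rho = 0.17 (permutation p = 0.759 and 0.690, each adjusted over the 21 pairs of probe sets of 1 gene). Without wild-type 1, wild-type 2 and knock-out 1, a choice made after seeing the data, r was 0.88, and without the arrays farthest from the median, knock-out 4 and knock-out 7, it was -0.12. With the log2 ratio as a covariate its log2 change went from -0.21 ± 0.36 SE to -0.52 ± 0.23 SE (limma unadjusted p = 0.0435, adjusted p = 0.855). Without knock-out 1 it was -0.02, without wild-type 2 it was -0.50, without litter 219 it was -0.59, and with litter as a block it was -0.04 ± 0.39 SE. The part of RNA quality in these differences was not tested further.

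The promoters of Dnmt1 and Uhrf1 are shown because these are the members tied to replication, and because among the 17 RefSeq promoter windows of the 10 genes only these 2 hold an E2F-type motif. The motifs searched, on both strands, were TTTCCCGC, TTTGGCGC, TTTCGCGC and TTTGCCGC, and 2.26% of all 32851 windows hold at least 1 of them. E2F factors are the main activators of S phase genes. The windows reach from 250 bases before to 50 after a start site in GRCm38.p6, are written 5′ to 3′ along the gene, and have the motifs in capitals. That of Dnmt1 lies at chr9:20952574-20952873 on the minus strand and that of Uhrf1 at chr17:56304063-56304362 on the plus strand, and each holds 33 CpG pairs, against a median of 7 over all windows. The other windows of these genes hold none of the motifs and fewer CpG pairs, 2 and 12 for Dnmt1 and 12 for Uhrf1. Each motif searched contains a CpG pair, and the share among windows of like CpG content was not computed.
Dnmt1: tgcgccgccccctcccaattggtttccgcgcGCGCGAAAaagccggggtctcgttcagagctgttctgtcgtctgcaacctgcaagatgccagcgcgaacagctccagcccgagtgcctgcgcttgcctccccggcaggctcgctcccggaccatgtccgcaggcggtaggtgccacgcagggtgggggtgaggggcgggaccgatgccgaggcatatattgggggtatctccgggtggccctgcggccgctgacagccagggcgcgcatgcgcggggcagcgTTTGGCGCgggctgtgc
Uhrf1: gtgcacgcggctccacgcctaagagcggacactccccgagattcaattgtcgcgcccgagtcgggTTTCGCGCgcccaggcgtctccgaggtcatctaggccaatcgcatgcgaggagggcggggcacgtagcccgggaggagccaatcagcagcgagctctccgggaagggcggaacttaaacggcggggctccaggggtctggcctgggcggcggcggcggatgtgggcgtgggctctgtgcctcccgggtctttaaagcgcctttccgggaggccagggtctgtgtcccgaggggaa
The Dnmt1 window holds TTTCGCGC on the opposite strand, near its distal end, and TTTGGCGC after the start site, and the Uhrf1 window holds TTTCGCGC upstream. A match is a description of the letters and not a bound site.

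Dnmt3a, the de novo methyltransferase of the developing and postnatal brain, was read by 5 probe sets, with log2 changes from 0.02 to 0.44. The lead probe set 1460324_at ran from 1619 through 1893 to 2104 in wild-type and from 1577 through 1977 to 2401 in knock-out brains, and the second strong one, 1423063_at, from 1154 through 1979 to 2319 and from 1558 through 1938 to 2222. Both overlapped almost fully, with log2 changes of 0.06 ± 0.12 SE and 0.06 ± 0.16 SE. The weaker 1423066_at ran from 364 through 558 to 657 in wild-type and from 493.1 through 715 to 923 in knock-out brains. Of the 7 knock-out embryos 6 lay above all wild-type embryos, and that of litter 262 lay among them. Its log2 change was 0.44 ± 0.17 SE (limma unadjusted p = 0.0205, adjusted p = 1.00, exact permutation p = 0.0291).

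Within litters the values of 1423066_at were spread widely. They were 0.21, 0.32, 1.03 and -0.13 in litters 219, 238, 250 and 262, and without litter 250 the log2 change was 0.18. Whether litters differ in it was not tested. Probe set 1423065_at ran from 128 through 196 to 321 in wild-type and from 225 through 256 to 350 in knock-out brains. All knock-out embryos exceeded 5 of the 6 wild-type embryos, and the wild-type embryo of litter 262 lay above 6 of the 7 knock-outs. Its log2 change was 0.38 ± 0.17 SE (limma unadjusted p = 0.0398, adjusted p = 1.00, exact permutation p = 0.0466), with 0.62, 0.29, 0.29 and 0.12 within litters 219, 238, 250 and 262. Without wild-type 2, the lowest embryo, the change was 0.27, without litter 219 it was 0.22, and without wild-type 6 it was 0.51. Without wild-type 1, wild-type 2 and knock-out 1 it was 0.21, and after median centring it was 0.18. The 5th probe set, 1423064_at, had a log2 change of 0.02 ± 0.22 SE. Whether the probe sets differ from each other in their genotype difference was not tested.

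Across embryos 1423064_at ran against the lead Dnmt3a probe set. Their Pearson r was -0.81 and their Spearman rho -0.81 (permutation p = 0.00604 and 0.0144, each adjusted over 21 pairs), and r was -0.69 without knock-out 2 and knock-out 7. The 2 strong probe sets rose and fell together (r = 0.71, rho = 0.77, permutation p = 0.0151 and 0.0195 after the same adjustment, r = 0.69 without the same 2 arrays). The annotation gives 1 accession for all 5 probe sets, and the part of the transcript each one reads was not analysed here.

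Dnmt3b, the de novo enzyme of the early embryo, was weakly expressed. Its lead probe set 1449052_a_at ran from 61.6 through 126 to 154 in wild-type and from 88.6 through 121 to 242 in knock-out brains, with a log2 change of 0.17 ± 0.22 SE (95% interval -0.30 to 0.63, limma adjusted p = 1.00). Knock-out 1 lay far above the other embryos, at 242 against 155 for the next one. The log2 change was 0.03 without knock-out 1 and 0.02 without wild-type 6. The second probe set, 1418351_a_at, had a log2 change of 0.22 ± 0.18 SE. Probe sets of like signal had median changes of 0.15 and 0.18, close to those of Dnmt3b.

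**Figure D2:**
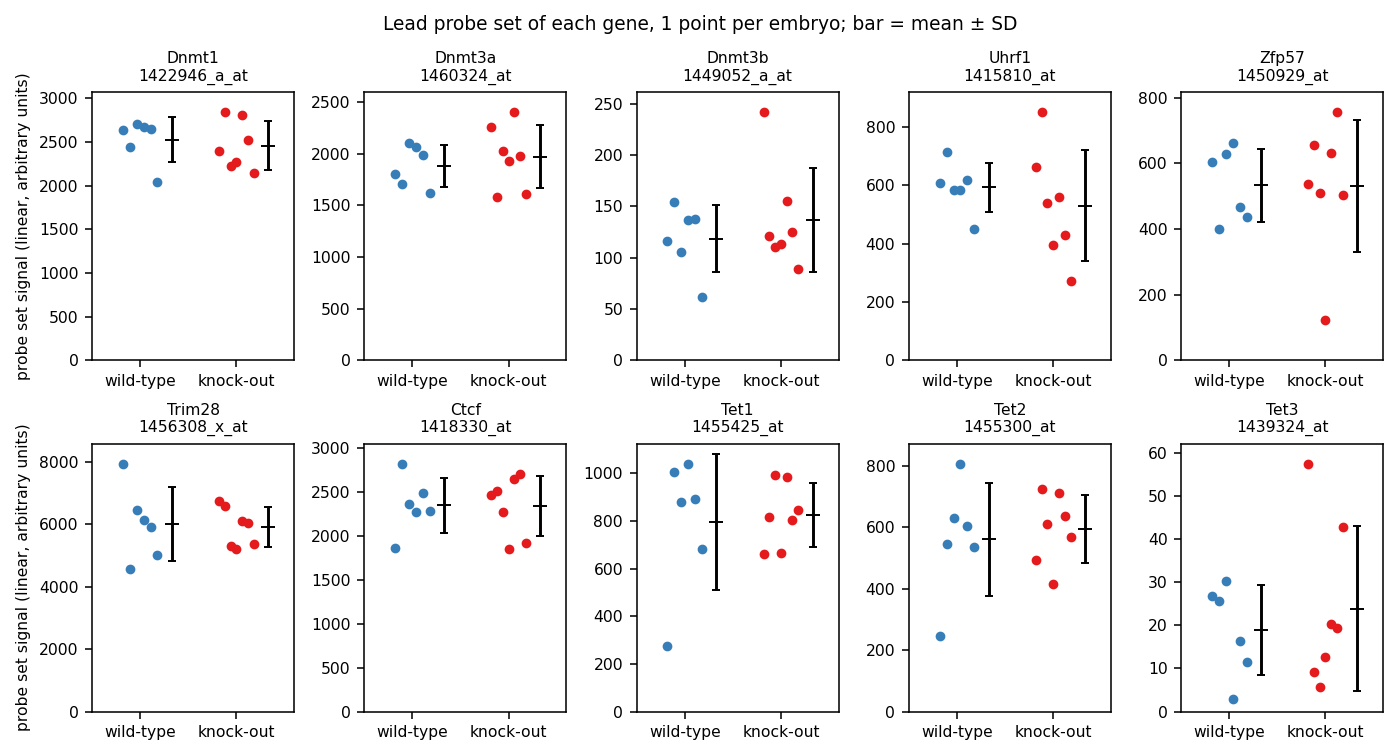
Linear signal of the lead probe set of each of the 10 genes, 1 point per embryo (blue, 6 wild-type; red, 7 knock-out), with the mean ± SD beside each group and each vertical axis starting at 0. The groups overlap in all 10 genes, wild-type 1 lies at 274 for Tet1 and 245 for Tet2, and knock-out 4 at 124 for Zfp57.

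Tet1, the dioxygenase best known from pluripotent and germ cells, had higher means in knock-out brains on all 4 of its probe sets, of which 1 had an unadjusted p under 0.05. That one, 1429448_s_at, ran from 102 through 173 to 212 in wild-type and from 180 through 258 to 294 in knock-out brains. Of the 7 knock-out embryos 5 lay above all wild-type embryos, and knock-out 1 and knock-out 7, at 184 and 180, lay among them. Its log2 change was 0.52 ± 0.17 SE (95% interval 0.15 to 0.88, limma unadjusted p = 0.00846, adjusted p = 1.00, exact permutation p = 0.0134). It was higher in knock-out embryos in all 4 litters with both genotypes, by 0.92, 0.37, 0.50 and 0.34 in litters 219, 238, 250 and 262. Without wild-type 1, wild-type 2 and knock-out 1 it was 0.48. Over the alternatives its log2 change lay between 0.32 (± 0.19 SE, after median centring) and 0.59, and it passed over all probe sets in 0 of 29. Probe sets of like signal had a median change of 0.12.

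The lead Tet1 probe set showed a smaller difference, and whether the probe sets differ in it was not tested. For 1455425_at the signal ran from 274 through 885 to 1040 in wild-type and from 662 through 815 to 992 in knock-out brains, and knock-out minus wild-type was 0.15 ± 0.26 SE on the log2 scale (limma adjusted p = 1.00). The wild-type minimum was wild-type 1, and without that array the change was -0.13. For 1419896_at the change was 0.41 ± 0.24 SE, with within-litter values of 1.084, 0.53, 0.13 and 0.19, and without litter 219 it was 0.11. The weakest one, 1419897_at, lay below the filter at 15.5 ± 14.6 (SD, n = 6) and 25.5 ± 28.1 (SD, n = 7). Names ending in _s_at mark probe sets that can match more than 1 transcript or gene, so the signal of 1429448_s_at need not come from Tet1 alone.

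Tet2, the family member without a CXXC DNA-binding domain, had higher means on both probe sets. The lead 1455300_at ran from 245 through 574 to 807 in wild-type and from 416 through 611 to 723 in knock-out brains, with a log2 change of 0.14 ± 0.22 SE (95% interval -0.34 to 0.62, limma adjusted p = 1.00). Without wild-type 1, at 245, it was -0.07. Probe set 1438781_at ran from 66.5 through 286 to 391 and from 134 through 394 to 450, with a log2 change of 0.65 ± 0.36 SE (limma unadjusted p = 0.0944). Its lowest embryos were wild-type 1 at 66.5, knock-out 4 at 134 and wild-type 5 at 141, and without litter 219 the change was 0.29, without litter 238 it was 0.98.

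Tet3, the form found in the oocyte and in neurons, had 1 probe set and it lay below the filter. Its signal was 18.8 ± 10.5 (SD, n = 6) in wild-type and 23.9 ± 19.1 (SD, n = 7) in knock-out brains, ranging from 3.01 to 57.5 over the arrays. The test without a filter gave 0.13 ± 0.29 SE on the log2 scale (limma adjusted p = 1.00). No level of Tet3 is read from it.

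Tet1 and Tet2 signals were correlated across embryos, in a relation that passed with all arrays and did not pass without some of them. Of the 36 pairs among the 9 lead probe sets above the filter, theirs was the only one past the threshold, with Pearson r = 0.91 (permutation p = 0.00048, adjusted p = 0.0173). Spearman's rho was 0.65 (permutation p = 0.0196, adjusted p = 0.175), which did not pass. Without wild-type 1 and knock-out 1, the arrays farthest from the median of Tet1, r was 0.65 (permutation p = 0.029, adjusted p = 0.238), so the call rests on those arrays. Without wild-type 1, wild-type 2 and knock-out 1 it was 0.78 (permutation p = 0.00633, adjusted p = 0.056). Within wild-type embryos, wild-type 1 included, r was 0.95 (adjusted permutation p = 0.283), and within knock-out embryos it was 0.76 (adjusted permutation p = 0.289). Neither passed. Their promoter windows are shown because this pair had the highest correlation and because they differ in CpG content, with CpG pairs in capitals. The Tet1 window at chr10:62887275-62887574 holds 17 and the Tet2 window at chr3:133544341-133544640 holds 57, more than any other window of the 10 genes, both on the minus strand of GRCm38.p6.
Tet1: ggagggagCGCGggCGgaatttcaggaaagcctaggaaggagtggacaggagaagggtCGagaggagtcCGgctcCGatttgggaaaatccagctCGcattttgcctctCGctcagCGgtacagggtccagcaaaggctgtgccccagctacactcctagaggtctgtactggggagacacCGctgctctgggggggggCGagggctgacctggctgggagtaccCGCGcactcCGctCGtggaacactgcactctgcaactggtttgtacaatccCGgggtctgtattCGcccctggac
Tet2: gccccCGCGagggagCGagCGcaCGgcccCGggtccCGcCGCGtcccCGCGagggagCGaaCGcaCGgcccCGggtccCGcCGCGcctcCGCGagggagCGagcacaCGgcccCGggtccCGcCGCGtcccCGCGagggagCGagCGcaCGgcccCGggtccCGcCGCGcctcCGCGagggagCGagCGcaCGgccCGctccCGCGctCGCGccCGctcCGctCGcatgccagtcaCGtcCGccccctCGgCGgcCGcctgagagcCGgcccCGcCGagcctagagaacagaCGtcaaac
Over the 17 windows of the 10 genes the count ran from 2 to 57 CpG pairs, and 14 windows exceeded the median of 7.

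Zfp57, the KRAB zinc finger protein that guards imprints, had 1 embryo far from the rest and no detectable difference between genotypes. Its probe set 1450929_at ran from 401 through 536 to 663 in wild-type and from 124 through 538 to 756 in knock-out brains. Knock-out 4, of litter 238, read 124, and the other 6 knock-outs read 503 to 756. On the log2 scale the difference was -0.13 ± 0.32 SE (limma adjusted p = 1.00), and without knock-out 4 it was 0.17. The other knock-out embryo of the same litter read 511, and the wild-type littermate 628. Knock-out 4 was also the lowest knock-out on both Tet2 probe sets, at 416 and 134, and on the lead probe set of Ctcf, at 1851. The same held on both Trim28 probe sets, at 5208 and 4270. On Dnmt3a 1423066_at knock-out 4 was the highest of all embryos, at 923. The Actb ratio of knock-out 4 was 1.40.

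Trim28, the corepressor that Zfp57 recruits, had close means in both genotypes. Probe set 1456308_x_at ran from 4582 through 6036 to 7952 in wild-type and from 5208 through 6040 to 6759 in knock-out brains. The wild-type range enclosed the knock-out range, and the log2 change was -0.01 ± 0.13 SE (95% interval -0.29 to 0.27, limma adjusted p = 1.00). Its extremes were both wild-type embryos of litter 219, wild-type 1 at 7952 and wild-type 2 at 4582. The second probe set, 1415869_a_at, had a log2 change of -0.01 ± 0.15 SE. After median centring both probe sets stood at -0.21. The 2 tracked each other closely (r = 0.94, rho = 0.94, permutation p = 0.00042 and 0.00021, adjusted over 21 pairs, r = 0.89 without wild-type 1 and wild-type 2).

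Ctcf, the insulator protein, had 2 probe sets that did not follow each other. The lead 1418330_at ran from 1859 through 2323 to 2821 in wild-type and from 1851 through 2464 to 2698 in knock-out brains, with a log2 change of -0.01 ± 0.13 SE (95% interval -0.28 to 0.26, limma adjusted p = 1.00). The weaker 1449042_at ran from 457 through 596 to 1026 and from 549 through 859 to 1070. There 5 of 6 wild-type embryos lay below 6 of the 7 knock-outs, and the exceptions were wild-type 6 at 1026 and knock-out 1 at 549. Its log2 change was 0.40 ± 0.19 SE (limma unadjusted p = 0.0552, adjusted p = 1.00), with 1.10, 0.43, 0.35 and 0.03 in litters 219, 238, 250 and 262 and 0.49 ± 0.15 SE with litter as a block (unadjusted p = 0.00821, adjusted p = 0.995). Without litter 219 it was 0.16 ± 0.20 SE (unadjusted p = 0.428). The correlation of the 2 probe sets over the 13 arrays was r = 0.00 and rho = 0.05 (permutation p = 0.988 and 0.876, adjusted over 21 pairs). The annotation gives them 1 accession.

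**Figure D3:**
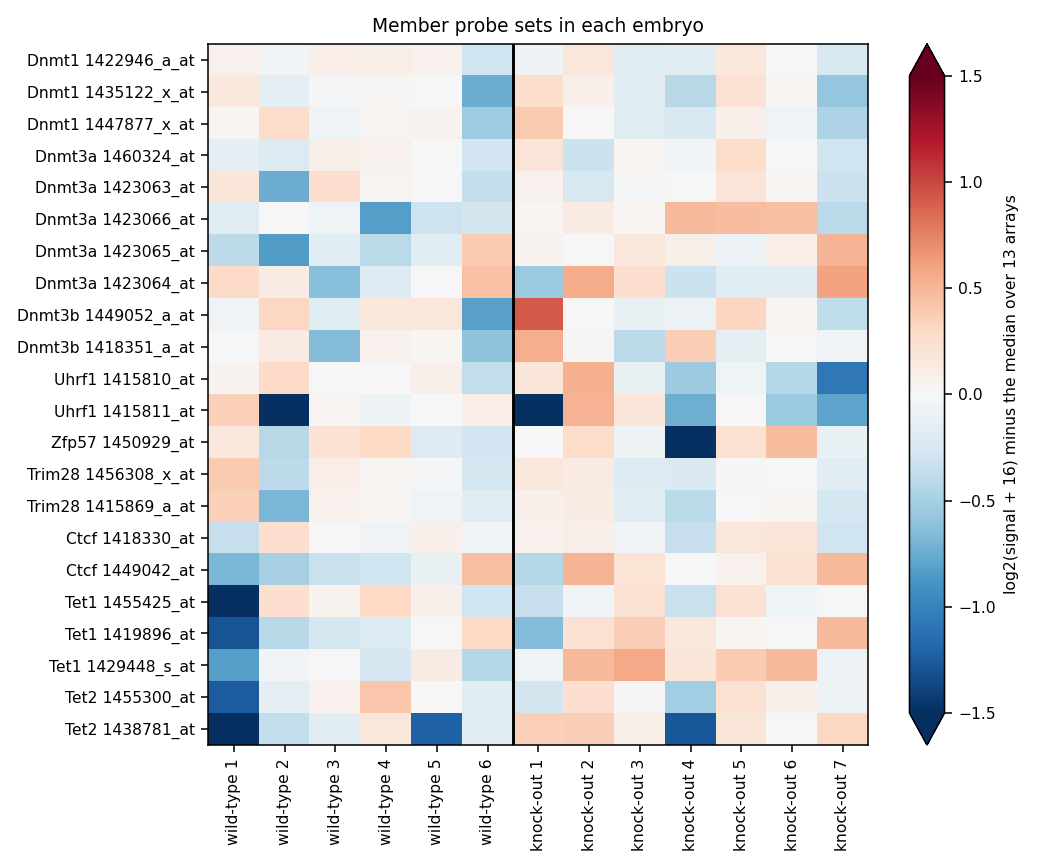
Log2(signal + 16) of the 22 probe sets above the filter in each of the 13 embryos, as the difference from the median over all arrays (red above, blue below, colours clipped at 1.5). Wild-type 1 is low for all Tet1 and Tet2 probe sets, wild-type 2 and knock-out 1 for Uhrf1 1415811_at, knock-out 4 for Zfp57 and Tet2 1438781_at, and wild-type 6 and knock-out 7, both of litter 262, for all 3 of Dnmt1.

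The replication factors were set against S phase genes, since Dnmt1 and Uhrf1 act behind the replication fork. The mean of 16 S phase genes, none of them a member, differed by -0.03 between knock-out and wild-type brains on the centred log2 scale, and ranged from -0.33 to 0.24 in wild-type and from -0.19 to 0.37 in knock-out embryos. Its difference was 0.42 in litter 219 and -0.00, -0.15 and -0.21 in litters 238, 250 and 262. Of 9 correlations with the lead probe sets, 0 passed after adjustment. Those of Tet2, Ctcf, Tet1 and Uhrf1 were close in size, at r = 0.65, 0.64, 0.63 and 0.61, each with an adjusted permutation p of 0.0618. That of Uhrf1 was r = 0.61 and rho = 0.59 (permutation p = 0.0275 and 0.0363, adjusted p = 0.0618 and 0.163), with r = 0.73 without wild-type 1 and knock-out 2. Within knock-out embryos r was 0.81 and within wild-type embryos 0.26. Without wild-type 1, wild-type 2 and knock-out 1, r was 0.88 for Uhrf1 (permutation p = 0.00125, adjusted p = 0.0112), 0.53 for Tet2, 0.46 for Ctcf and 0.24 for Tet1. For Dnmt1 r was 0.34 and rho 0.44 (adjusted permutation p = 0.439 and 0.242), with 0.74 within knock-out and -0.16 within wild-type embryos and 0.58 without the same 3 arrays. After median centring 3 relations passed, those of Uhrf1 (r = 0.76), Ctcf (0.75) and Dnmt1 (0.65), at adjusted permutation p of 0.0149, 0.0149 and 0.0432. Median centring takes the same array median from both sides of a relation, which can itself correlate them, so nothing is read from these. After quantile normalization 0 passed, and the same 3 had r = 0.68, 0.51 and 0.28 (adjusted permutation p = 0.11, 0.351 and 0.4). Of 9 correlations with the Actb ratio, 0 passed.

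The genes most like each member were ranked by Pearson r over the 13 arrays, among 12920 genes, as a description without a test. For Uhrf1 they were Kif2c, a mitotic kinesin (r = 0.95), Mcm5, a subunit of the replicative helicase (0.94), Ncaph of condensin (0.94), the lamin B receptor Lbr (0.93) and the kinetochore gene Spc24 (0.92). Without wild-type 1, wild-type 2 and knock-out 1 these 5 kept r of 0.93 to 0.97. Mcm5 is also among the 16 S phase genes. For Dnmt1 they were the catenin Ctnnd1, Slc41a1, Stab1, Sh3pxd2a and Pml (0.90 to 0.93), none of them among the S phase genes listed. The first for Dnmt3a was the presynaptic gene Rims1 (0.95) and for Dnmt3b the mannosidase Man2a2 (0.96). For Tet1 they were Fndc3a, the cohesin regulator Pds5b, the kinase Pak3, the calcium channel subunit Cacna2d1 and Ccdc50 (0.97 to 0.98), which without the same 3 arrays had r of 0.79 to 0.92. For Tet2 the first was the ribosome assembly gene Bms1 (0.97), for Zfp57 Ewsr1 (0.92), for Trim28 the cleavage factor subunit Cpsf1 (0.97) and for Ctcf Maco1 (0.91). Such a ranking picks the highest of many values.

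**Figure D4:**
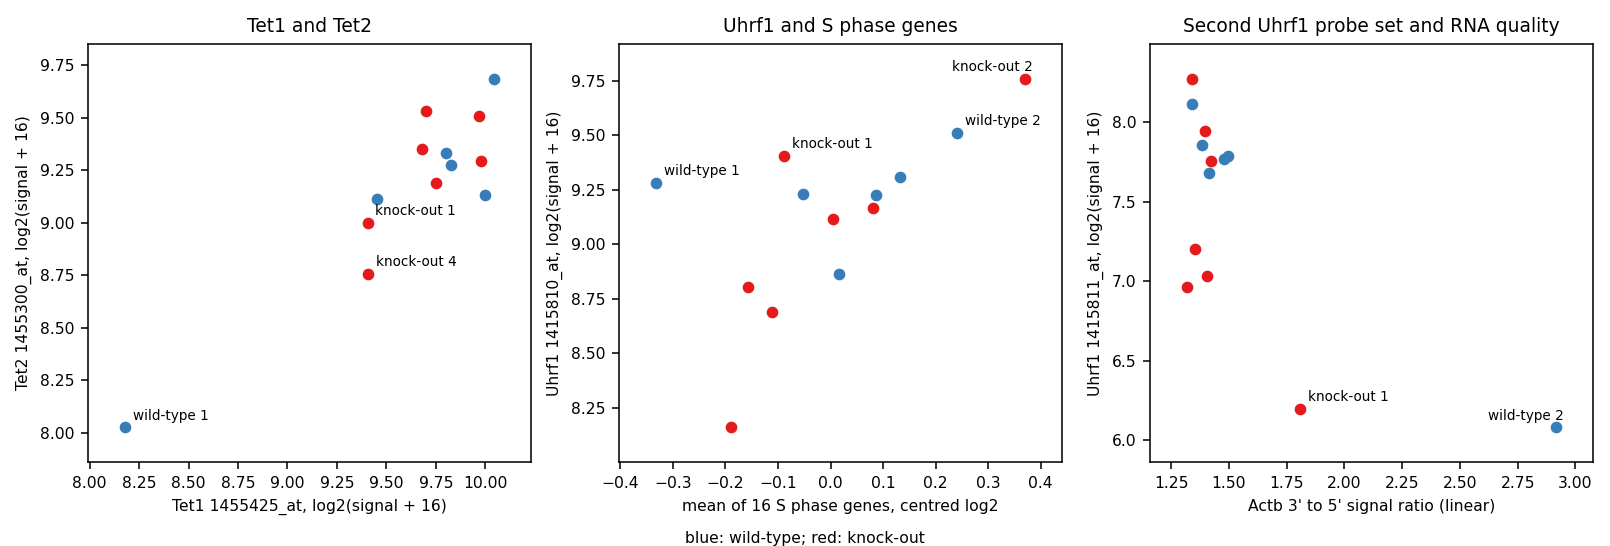
Each point is 1 embryo (blue, wild-type; red, knock-out): Tet2 against Tet1 lead signal, Uhrf1 lead signal against the mean of 16 S phase genes, and Uhrf1 1415811_at against the Actb 3' to 5' ratio, signals as log2(signal + 16) and the ratio linear. Wild-type 1 lies far from the other embryos in the first panel, and wild-type 2 and knock-out 1 in the third.

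The partners of these factors gave 0 calls in every list, where 0.0629% of all tested probe sets were called. For scale, the median log2 change was 0.08 over all tested probe sets and 0.04 over the lead probe sets of all genes. Partners of maintenance (10 of 10 genes tested, 21 probe sets) had a median of 0.11 over probe sets, with the clamp Pcna at -0.14 ± 0.12 SE and Cdca7, which recruits the remodeller Hells, at -0.23 ± 0.20 SE. Methyl-CpG readers (7 of 8 genes, 15 probe sets) had a median of 0.18, with the glycosylase Mbd4 at 0.30 ± 0.21 SE and Zbtb38 at 0.26 ± 0.19 SE. Partners of demethylation (10 of 12 genes, 22 probe sets) had a median of 0.06, with the O-GlcNAc transferase Ogt, which binds Tet proteins, at 0.35 ± 0.22 SE and Gadd45a at -0.12 ± 0.09 SE.

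Partners of imprint protection had a higher mean for 10 of 10 tested genes of 13, where 65.5% of all genes did. Over their 29 probe sets the median was 0.18, but over lead probe sets it was 0.06, where that of all genes was 0.04. The heterochromatin gene Cbx3 stood at 0.48 ± 0.18 SE (limma unadjusted p = 0.0178, adjusted p = 1.00) and the histone methyltransferase Setdb1, which Trim28 recruits, at 0.15 ± 0.09 SE. The Cbx3 probe set was weak, with means of 75.5 in wild-type and 111 in knock-out brains. Cohesin and other partners of Ctcf (10 of 11 genes, 32 probe sets) had a median of 0.15, with Pds5a at 0.51 ± 0.26 SE and the cohesin subunit Rad21 at 0.20 ± 0.16 SE. Genes of methyl donor supply (6 of 10 genes, 12 probe sets) had a median of 0.13, with the serine hydroxymethyltransferase Shmt1 at 0.51 ± 0.25 SE and the methionine synthase Mtr at 0.20 ± 0.16 SE. Of the 16 S phase genes 5 had higher and 11 lower means, with Cdc45 at -0.22 ± 0.14 SE and Mcm2 at 0.22 ± 0.16 SE, and the median of their 33 probe sets was -0.05.

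Genes that DNA methylation is known to control were read as targets. Germline genes whose promoters are methylated in body tissues, such as Dazl, Ddx4 and Sycp3, had no probe set above the filter, which was applied to the mean over all arrays. None of their 13 probe sets, from 10 genes, passed it, the highest group means were 48.3 in wild-type and 60.9 in knock-out brains, and in the test without a filter 0 were called and 1 had an unadjusted limma p under 0.05, where 5.23% of all probe sets did. Imprinted genes outside the Dlk1-Dio3 cluster (27 of 33 genes, 57 probe sets) gave 0 calls, with 21 higher and 6 lower means and a median of 0.15 over probe sets and 0.05 over lead probe sets. Among lead probe sets the smallest p belonged to the antisense transcript Kcnq1ot1 (0.67 ± 0.32 SE), then to the splicing factor gene Snrpn (0.22 ± 0.18 SE), both at a limma adjusted p of 1.00.

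Markers of brain cell types gave 0 calls as well. The mean log2 signal of 6 neural progenitor genes, cells in which Dnmt1 and Uhrf1 are at work, ran from 10.2 to 10.5 in wild-type and from 9.76 to 10.6 in knock-out embryos, and that of 7 neuron genes from 12.99 to 13.4 and from 13.1 to 13.4. For 5 astrocyte genes it ran from 9.94 to 10.7 and from 10.1 to 10.8, for 5 oligodendrocyte lineage genes from 9.74 to 10.1 and from 9.67 to 10.2, and for 5 microglia genes from 8.04 to 8.90 and from 8.08 to 8.70. Endothelial genes ran from 8.45 to 9.19 and from 8.45 to 9.17, and meningeal genes from 9.57 to 11.1 and from 9.30 to 11.01. The red cell gene Alas2, the only 1 of 5 tested, ran from 7.76 to 10.7 and from 8.18 to 10.6. Choroid plexus genes (4 of 5 tested) ran from 10.2 to 11.3 and from 9.29 to 10.7. In whole tissue, fewer cells of a type and less RNA per cell cannot be told apart.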

How the data were processed

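Total RNA of 13 whole brains was labelled by the Affymetrix one-cycle procedure, per the labels' protocols. The authors deposited linear probe set intensities, and the sources used here do not name the summary software or the scaling. Of 45037 non-control probe sets, 34945 carried 1 gene symbol, 932 several and 9160 none. Symbols came from GEO's platform annotation. Intensities were used as log2(signal + 16), which understates changes of weak probe sets. Probe sets above the 40th percentile of mean log2 signal (signal 56.9) (27022 in all) entered a two-sided limma test (limma 3.58.1, R 4.3.3) without a litter term, and p-values were adjusted over all of them by Benjamini-Hochberg at a threshold of 0.05. Exact permutation tests ran over all 1716 splits, which ignore litter. Correlations used 100000 permutations. Members and lists were chosen with earlier results of these data known. On simulated data for this comparison (27022 probe sets), 24.5%, 70.0% and 95.3% of 1.5-, 2- and 4-fold changes were recovered, with 5.05% false calls. The number of arrays limits precision. Named were all member probe sets, the 2 list genes with the smallest p where none passed, and up to 5 genes by correlation. Alternatives were other pseudocounts, filters and scalings, blocks, a covariate, left-out arrays or litters, and least squares. Plots used matplotlib 3.10.9 in Python 3.11.15.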

Additional observations from a re-analysis of the deposited data

Results flagged for a closer look

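In each genotype the highest and the lowest embryo of the 22 probe sets above the filter were compared with the rest, 44 groups in all, and in 10 of them 1 embryo stood apart by more than the 95% critical value of Dixon's gap ratio. Chance flags about 1 in 20 groups. Of these, 3 concern litter 262: wild-type 6 read 2042 on Dnmt1 1422946_a_at (the other wild-types 2445 to 2708) and 1296 on 1435122_x_at (1983 to 2451), and knock-out 7 read 350 on Dnmt3a 1423065_at (the other knock-outs 225 to 272). Wild-type 4 read 364 on Dnmt3a 1423066_at (527 to 657). Wild-type 2 read 51.7 on Uhrf1 1415811_at (189 to 261). Wild-type 1 read 274 on Tet1 1455425_at (684 to 1040) and 245 on Tet2 1455300_at (537 to 807). Knock-out 1 read 158 on Tet1 1419896_at (257 to 367). Knock-out 4 read 124 on Zfp57 1450929_at (503 to 756) and 134 on Tet2 1438781_at (346 to 450).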

How the results depend on the processing

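Under all 30 alternatives 0 member probe sets passed the threshold. Over all probe sets the count of 17 went to 11 with a filter at the 60th percentile, 9 with the replicate block, 3 with 1 probe set per gene, 25 with no filter, 12 without litter 250, and 15 to 18 when each array was left out. Member probe sets at an unadjusted limma p under 0.05, 3 in the main comparison, were 0 after quantile normalization, median centring or with 1 probe set per gene, 5 with litter as a block or without litter 148, 1 without litter 250, and 2 to 5 when each array was left out. Replicate numbers showed no sign of pairing the embryos. Same-numbered embryos of different genotype had deviations correlated from -0.43 to 0.20 (median -0.030). Pairs from different litters ran from -0.44 to 0.42 (median -0.029), and pairs from the same litter from -0.12 to 0.75 (median 0.047). The replicate block left 2 member probe sets at an unadjusted p under 0.05. Lead probe sets with log2 changes near 0 changed sign. Median centring, which took the median of all probe sets to -0.12, gave -0.14 for Dnmt3a, -0.030 for Dnmt3b, -0.049 for Tet1 and -0.058 for Tet2, and quantile normalization -0.013 for Dnmt3b. Without a change of sign, median centring gave -0.24 for Dnmt1, -0.42 for Uhrf1, -0.33 for Zfp57, -0.21 for Trim28 and -0.20 for Ctcf. The litter block gave -0.022 for Dnmt3a and 0.00025 for Ctcf, the replicate block 0.012 for Trim28 and 0.037 for Ctcf, and the Actb ratio as covariate 0.050 for Ctcf. Without litter 238 Dnmt1 stood at 0.030, Zfp57 at 0.27, Trim28 at 0.081 and Ctcf at 0.066, without litter 262 Ctcf at 0.032, and without litter 219 Tet1 at -0.084 and Tet2 at -0.17. Without wild-type 1, wild-type 2 and knock-out 1, chosen after seeing the data, Dnmt3a stood at -0.025, Tet1 at -0.035 and Tet2 at -0.079. With each array left out in turn log2 changes ran from -0.24 to 0.17 for Zfp57, -0.084 to 0.075 for Trim28, -0.072 to 0.048 for Ctcf, -0.13 to 0.25 for Tet1 and -0.075 to 0.26 for Tet2, and the other 4 lead probe sets kept their sign. Pairs of members past the adjusted threshold, 1 of 36, were 0 without the 2 farthest arrays and within wild-type, 1 within knock-out and 3 without the 3 arrays named. The pairs were not the same: Zfp57 with Ctcf within knock-out, and Dnmt1 with Trim28, Dnmt1 with Dnmt3b and Zfp57 with Tet2 without the 3 arrays. Tet1 with Tet2 passed under none of these alternatives, which all left out arrays. Pairs of members, and pairs of probe sets of 1 gene, were not tested after another scaling. S phase correlations past it, 0 of 9, were 0 after quantile normalization, 3 after median centring (Dnmt1, Uhrf1 and Ctcf) and 1 without those 3 arrays. The causes were not tested.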
